A study of Mus musculus with 18 samples.

Results

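Retinoic acid, active TGF-beta and tryptophan breakdown are among the signals by which phagocytes of the gut induce regulatory T cells, and 10 genes of this machinery were followed here: Aldh1a1, Aldh1a2, Aldh1a3, Rdh10, Rara, Itgb8, Itgav, Tgfb1, Tgfbi and Ido1. They were taken as every probe annotated to 1 of these symbols alone, which gave 11 probes for the 10 genes out of 22180 genes measured. Itgav had 2 probes, which were averaged, and each of the other 9 genes had 1. The measurements are 18 Affymetrix arrays of mouse genes, hybridised with RNA from phagocytes sorted out of the small intestine of VDTR mice, male and female. In this strain the villin promoter, active in intestinal epithelium, drives a fusion of the diphtheria toxin receptor with green fluorescent protein (GFP), so that GFP in a phagocyte marks material taken up from epithelial cells. All 6 groups came from VDTR mice killed 4 hours after an intraperitoneal dose of 2 ng of diphtheria toxin per kg, so no comparison here is against mice without the transgene or the toxin. Live CD45+ CD11c+ MHCII+ cells were sorted as CD103+ CD24+ dendritic cells (DCs), as CD103+ CD11b+ CD64+ macrophages and as CD11b+ CD64+ macrophages, each divided into GFP- and GFP+ cells, with 3 arrays per group. The labels used here give no age. They add an "n value" of 4 without explaining it and leave unsaid if replicates are different mice, so the p-values below reflect only the spread of these arrays, which may be technical.

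Retinoic acid is made from vitamin A in 2 oxidations: retinol dehydrogenases such as Rdh10 turn retinol into retinal, and the retinaldehyde dehydrogenases Aldh1a1, Aldh1a2 and Aldh1a3 turn retinal into retinoic acid, which binds nuclear receptors such as Rara. TGF-beta is secreted in a latent complex, and the integrin made of the alpha chain Itgav and the beta chain Itgb8 is a main activator of it on intestinal DCs. In the gut, CD103+ DCs are known for making retinoic acid and activating TGF-beta, which together favour the conversion of naive T cells into Foxp3+ regulatory T cells and their homing to the intestine. Ido1 breaks down tryptophan and is a further tolerance enzyme of DCs.

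Each value is a log2 distance from the median of its probe over the 18 arrays, so a value of 0 is the middle of the study and not an absence of expression, and levels of different genes cannot be compared. The column medians of the arrays ran from -0.04 to 0.05. Their spread was less even, with interquartile ranges over all probes from 0.26 to 0.58. These were 0.58, 0.39 and 0.47 on the GFP+ DC arrays and 0.38, 0.28 and 0.29 on the GFP- DC arrays. The sort was checked against marker genes. Itgae, the gene of CD103, lay between 4.93 and 5.56 on the 6 DC arrays, and all 11 measured macrophage markers were lower in DCs than in either macrophage population. The 11 measured DC markers were less uniform. Against the CD103+ CD11b+ CD64+ macrophages 6 were higher in DCs, 1 was lower and 4 did not pass. Against the CD11b+ CD64+ macrophages 5 were higher, 1 was lower and 5 did not pass. In the CD103+ CD11b+ CD64+ macrophages Itgae was at 3.44, -0.43 and 2.66 on the GFP- arrays and at -0.44, -0.15 and 0.05 on the GFP+ arrays, against -0.53 to -0.05 in the macrophages sorted without CD103. By these values the transcript did not bear out the CD103 label of this gate on the GFP+ arrays and on GFP- replicate 2. Averaged over both GFP gates, the difference between these 2 macrophage populations was 1.19 ± 0.46 (SE), with an adjusted p of 0.79 (limma with Benjamini-Hochberg adjustment, as throughout). Arrays differed in how closely they followed the mean of their group: 4 of the 18 (GFP+ DC replicate 1, CD103+ CD11b+ CD64+ GFP- replicate 2 and GFP+ replicate 1, and CD11b+ CD64+ GFP- replicate 1) had the lowest estimated weights. Whether a low weight came from the array or from the cells sorted was not tested.

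Between the populations, 3 of the 10 genes changed. Aldh1a2 was 16.9-fold higher in DCs than in the CD103+ CD11b+ CD64+ macrophages and 21.1-fold higher than in the CD11b+ CD64+ macrophages, averaged over both GFP gates. Tgfbi, which encodes a TGF-beta-induced matrix protein, was 16.4-fold and 25.5-fold lower in DCs, and Itgav was 3.13-fold and 3.80-fold lower. Of all genes measured, 7.93% passed in the first of these comparisons and 8.12% in the second (limma, Benjamini-Hochberg adjusted p under 0.05), so 3 of 10 is above the background share, in a set proposed with results of these data in view. The other 7 genes did not pass in either comparison. Between the 2 macrophage populations none of the 10 genes passed (limma, with 0 also at an unadjusted p under 0.05), where 0.0721% of all genes did. In bulk RNA, fewer cells of a type that carries a transcript and less RNA per cell cannot be told apart, and this holds for every difference given here.

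**Figure D1:**
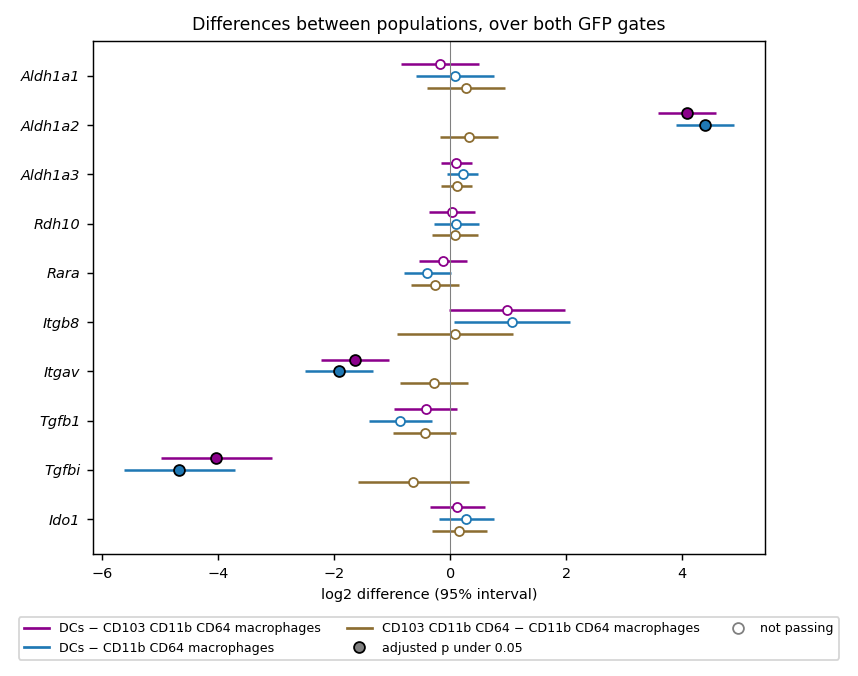
Differences between populations for the 10 genes, averaged over both GFP gates, on a log2 scale with 95% intervals from the limma fit; filled points passed an adjusted p of 0.05. Aldh1a2 lies at 4.08 and 4.40 to the right of 0, Tgfbi at -4.04 and -4.68 and Itgav at -1.65 and -1.93 to the left, and the other 7 genes have open points.

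The promoter windows of these 3 genes are shown because their transcripts part DCs from macrophages. RefSeq promoter sequence (build GRCm38.p6) was found for 7 of the 10 genes and not for Aldh1a3, Rdh10 and Ido1. Each line gives the 250 bases before a RefSeq transcription start, 5′ to 3′ on the gene's strand, which is the plus strand for all 3: chr9:71215539-71215788 for Aldh1a2, chr13:56609336-56609585 for Tgfbi and chr2:83724147-83724396 for Itgav. Capitals mark the letters of the motifs found.
Aldh1a2: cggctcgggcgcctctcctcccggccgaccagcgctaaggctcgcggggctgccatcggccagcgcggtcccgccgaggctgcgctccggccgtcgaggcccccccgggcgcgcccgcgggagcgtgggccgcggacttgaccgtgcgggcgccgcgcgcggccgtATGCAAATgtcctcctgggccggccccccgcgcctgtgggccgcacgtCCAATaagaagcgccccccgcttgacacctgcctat
Tgfbi: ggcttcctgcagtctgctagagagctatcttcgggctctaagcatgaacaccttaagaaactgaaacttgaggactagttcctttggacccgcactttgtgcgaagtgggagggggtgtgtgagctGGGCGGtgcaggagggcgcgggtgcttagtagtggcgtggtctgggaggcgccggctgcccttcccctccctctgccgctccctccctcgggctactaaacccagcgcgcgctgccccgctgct
Itgav: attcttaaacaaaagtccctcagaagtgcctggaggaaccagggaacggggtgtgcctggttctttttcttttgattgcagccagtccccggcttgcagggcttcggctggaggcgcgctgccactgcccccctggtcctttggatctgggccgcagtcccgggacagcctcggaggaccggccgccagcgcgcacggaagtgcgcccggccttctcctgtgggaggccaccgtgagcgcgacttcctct
The Aldh1a2 window holds the octamer ATGCAAAT 84 bases before the start and CCAAT 36 bases before it. Both also lie in a window of Aldh1a1, at 56 and 72 bases before its start, and Aldh1a1 did not pass between populations. The Tgfbi window holds the GC box GGGCGG 124 bases before the start, and the Itgav window holds none of the letters searched. The 7 motifs searched on both strands were AGGTCA and AGTTCA, half-sites of retinoic acid receptors, which 14% and 11.8% of 32851 RefSeq promoter windows of the same length hold, ATGCAAAT (1.6%), GGGCGG (32.7%), CCAAT (33.8%), TATATA (5.25%) and the palindromic SMAD box GTCTAGAC (0.167%). The octamer was added to the search after the sequences were seen, and no 2 of the marked motifs overlap. The Aldh1a2 window is rich in G and C, at 77.6%, which is above 97.6% of all windows, against 62.4% for Tgfbi, 64.4% for Itgav and a median of 52.4% over all windows. These are matches of letters, not measured binding sites.

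Among the enzymes that make retinoic acid, Aldh1a2 (probe 17519112) carried the difference between populations. On the GFP- DC arrays it was at 3.53, 3.28 and 3.56, and on the GFP+ DC arrays at 4.45, 5.34 and 4.19. In the CD103+ CD11b+ CD64+ macrophages it was at 0.72, -0.28 and -0.07 without GFP and at -0.18, 0.07 and -0.39 with GFP. In the CD11b+ CD64+ macrophages it was at -0.67, 0.48 and -0.42 without GFP and at -0.34, -0.52 and -0.57 with GFP. The lowest DC array was thus far above the highest macrophage array, and the 4 macrophage groups overlapped one another except the GFP- CD103+ CD11b+ CD64+ arrays, which all lay above the GFP+ CD11b+ CD64+ arrays. The difference was 4.08 ± 0.23 (SE; 95% interval 3.58 to 4.58) against the CD103+ CD11b+ CD64+ macrophages (limma, Benjamini-Hochberg adjusted p = 1.75e-08) and 4.40 ± 0.23 (3.90 to 4.90) against the CD11b+ CD64+ macrophages (adjusted p = 6.96e-09). Groups without overlap were found for 3.83% and 5.05% of all genes in these comparisons, and for 2 and 3 of the 10 genes here. The highest macrophage array for Aldh1a2 was GFP- replicate 1 of the CD103+ CD11b+ CD64+ gate. It was also the macrophage array with the highest Itgae and stood at 0.97 for the DC gene Flt3, whose other macrophage values ran from -0.40 to 0.45. Other genes high in DCs were mixed on that array, with Cd24a at 1.65 but Xcr1 at -0.36, Irf8 at -0.18 and Btla at -0.08. GFP- replicate 3 of the same gate, at 2.66 for Itgae, was at -0.07 for Aldh1a2. The part of DCs in that gate was not tested.

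Within DCs the order of the arrays for Aldh1a2 followed GFP, with all 3 GFP+ arrays above all 3 GFP- arrays. The difference was 1.20 ± 0.33 (2.30-fold; 95% interval 0.49 to 1.91), and it did not pass over all genes (limma, unadjusted p = 0.00266, Benjamini-Hochberg adjusted p = 0.0894). Under the 25 alternative settings it stayed between 0.86 and 1.44, with adjusted p-values from 0.0636 to 0.297, and it passed in none. Of the 11 DC markers none passed for GFP in DCs (limma, 0 at an unadjusted p under 0.05), where 1.58% of all genes passed. Other markers did shift between the DC gates. The 14 lymphocyte markers had array means of 0.35 to 0.77 without GFP and -0.41 to -0.18 with GFP, and the macrophage markers were also lower with GFP. Their part in the DC values of Aldh1a2 was not tested. In the macrophages the GFP contrast for Aldh1a2 gave -0.29 ± 0.33 and -0.27 ± 0.33, with overlapping arrays. The test of whether the GFP effect on Aldh1a2 differed between the 3 populations did not pass either (F-test in limma, unadjusted p = 0.00885, adjusted p = 0.226).

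None of the 10 genes passed for GFP within DCs, where 3 had an unadjusted p under 0.05 (Aldh1a2, Itgb8 and Itgav) and 1.58% of all genes passed in limma. Of these genes 72 were higher and 279 lower with GFP, and with quantile normalization 24 were higher and 24 lower. Arrays of the 2 GFP gates did not overlap for 2 of the 10 genes, Aldh1a2 and Itgb8, both higher with GFP. Such a gap in the higher direction was found for 8.66% of all genes in DCs. None passed in the CD103+ CD11b+ CD64+ macrophages (2 at an unadjusted p under 0.05, Rdh10 and Itgav) or in the CD11b+ CD64+ macrophages (1, Itgav), where 0.0541% and 0.0271% of all genes passed. Averaged over the 3 populations none passed (0 at an unadjusted p under 0.05), with 0.410% of all genes passing, and none had a GFP effect that differed between populations, with 0.361% of all genes passing. The median GFP effect of the 10 genes was 0.00 in DCs, 0.18 in the CD103+ CD11b+ CD64+ macrophages and 0.19 in the CD11b+ CD64+ macrophages, beside medians over all genes of -0.02, 0.02 and 0.01.

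**Figure D2:**
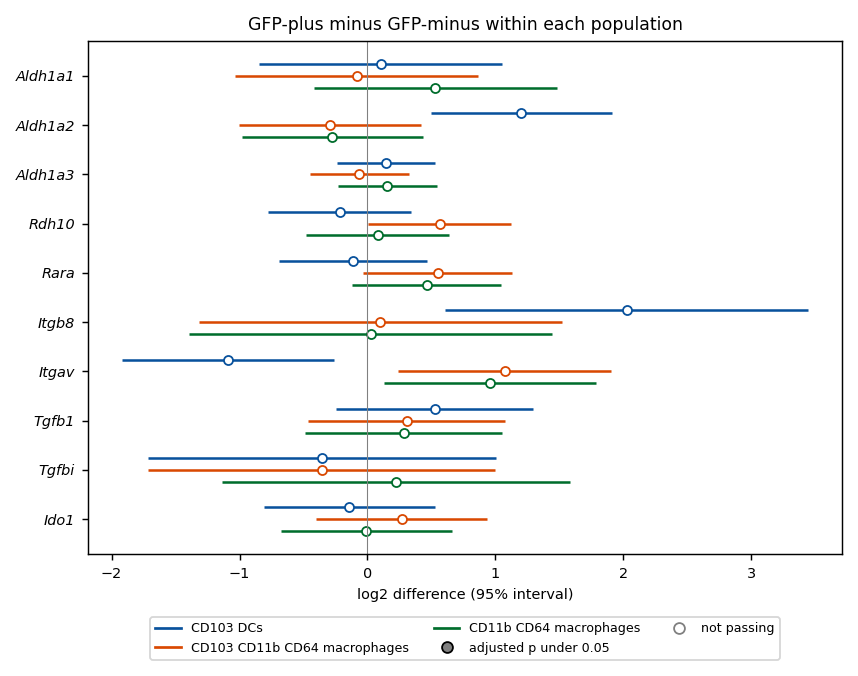
GFP+ minus GFP- differences for the 10 genes in each population, on a log2 scale with 95% intervals from the limma fit; every point is open because none passed an adjusted p of 0.05. In DCs Aldh1a2 lies at 1.20, Itgb8 at 2.03 and Itgav at -1.09, while Itgav lies at 1.07 and 0.96 in the macrophage populations.

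The other 2 retinaldehyde dehydrogenases did not follow Aldh1a2. Aldh1a1 ran from -0.80 on CD11b+ CD64+ GFP- replicate 2 to 0.95 on GFP+ DC replicate 3, and within GFP+ DCs alone it spanned -0.75 to 0.95, so every group overlapped every other. DCs differed from the 2 macrophage populations by -0.18 ± 0.31 (95% interval -0.85 to 0.49) and 0.09 ± 0.31 (-0.58 to 0.76), which leaves a difference of the size seen for Aldh1a2 outside both intervals. Aldh1a3 varied less, from -0.32 to 0.48 over all 18 arrays, with DC differences of 0.10 ± 0.13 and 0.21 ± 0.13 (intervals up to 0.38 and 0.48). For both genes the GFP effect in DCs was small beside its error, at 0.10 ± 0.44 and 0.15 ± 0.18.

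Rdh10, which makes retinal for these enzymes, did not pass in any comparison, and its DC differences from the macrophages were 0.03 ± 0.18 and 0.10 ± 0.18. In the CD103+ CD11b+ CD64+ macrophages its GFP- arrays stood at -0.35, 0.06 and -0.22 and its GFP+ arrays at 0.63, 0.19 and 0.34, without overlap, a difference of 0.56 ± 0.26 that did not pass (adjusted p = 0.535). A gap with GFP+ arrays above GFP- arrays was found there for 7.54% of all genes, and among the 10 genes for Rdh10 and Itgav. In DCs the highest value of Rdh10 was GFP- replicate 1 at 0.96, with the other 5 DC arrays between -0.17 and 0.08.

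Rara, the nuclear receptor that retinoic acid binds, was at 0.01, -0.01 and 0.12 on the GFP- arrays of the CD11b+ CD64+ macrophages and at 0.73, 0.49 and 0.29 on their GFP+ arrays. The GFP+ arrays all lay above the GFP- arrays, as for 9.63% of all genes and, among the 10, for Rara and Itgav, and the difference of 0.46 ± 0.27 did not pass (adjusted p = 0.871). In the CD103+ CD11b+ CD64+ macrophages the arrays ranged from -0.75 to 0.41 without GFP and from -0.26 to 0.75 with GFP, a difference of 0.55 ± 0.27 with overlap. DC arrays stayed between -0.33 and 0.08. The DC difference from the CD11b+ CD64+ macrophages was -0.39 ± 0.19 (adjusted p = 0.295), and it passed when the fit used only the 12 arrays of these 2 populations (adjusted p = 0.0318).

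**Figure D3:**
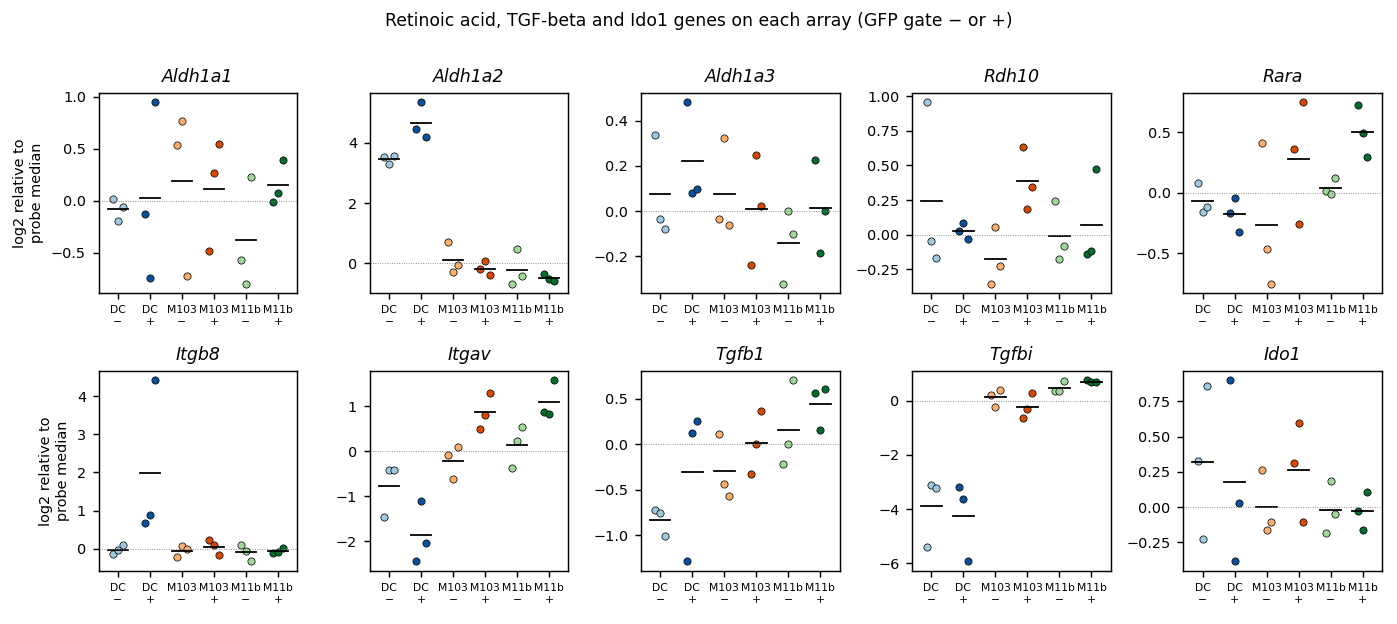
Values of the 10 genes on each array, log2 relative to the probe median, by population (DC, CD103+ CD11b+ CD64+ macrophages as M103, CD11b+ CD64+ macrophages as M11b) and GFP gate; points are arrays, bars are means of 3 arrays, and each panel has its own scale. Aldh1a2 is above 3 on every DC array and below 1 on every macrophage array, Tgfbi is below -3 on every DC array, and 1 GFP+ DC array stands at 4.42 for Itgb8.

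Around the members, 32 of 36 genes listed for retinoid transport, metabolism and signalling were measured. In DCs against the CD103+ CD11b+ CD64+ macrophages 1 was higher and 2 were lower, and against the CD11b+ CD64+ macrophages 1 was higher and 3 were lower, with list medians of -0.03 and -0.04 beside -0.02 and -0.03 over all genes. Of all genes 7.93% and 8.12% passed in these comparisons, so 3 and 4 of 32 are not far above the background share. The higher gene was Cyp26b1, the cytochrome P450 that degrades retinoic acid, by 2.60 ± 0.18 and 2.55 ± 0.18 (adjusted p = 1.31e-07 and 1.55e-07). Dhrs3, a reductase that turns retinal back into retinol, was lower by -4.23 ± 0.29 and -3.72 ± 0.29 (adjusted p = 1.21e-07 and 4.81e-07), with DC arrays from -4.86 to -2.07 and macrophage arrays from -0.11 to 0.94. The nuclear receptor Pparg was lower by -2.28 ± 0.39 and -1.58 ± 0.39 (adjusted p = 0.0013 and 0.0185), the second of which ended without CD11b+ CD64+ GFP- replicate 3 (-1.41) or GFP+ replicate 3 (-1.42), at adjusted p-values of 0.05002 and 0.0555. Rdh5, a retinol dehydrogenase, was lower in DCs than in the CD11b+ CD64+ macrophages by -0.90 ± 0.15 (adjusted p = 0.00106). The enzymes on both sides of retinoic acid, Aldh1a2 and Cyp26b1, thus shared their highest level in DCs.

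Within DCs, where 1.58% of all genes passed for GFP, Cyp26b1 was the 1 of these 32 genes that passed, and it fell. Its GFP- arrays were at 2.44, 3.69 and 3.36 and its GFP+ arrays at 2.05, 2.08 and 1.42, so that the gates did not overlap and ran opposite to those of Aldh1a2. The difference was -1.32 ± 0.25 (2.49-fold lower; adjusted p = 0.0212). The call ended with quantile normalization (adjusted p = 0.0795), in a fit of the DC arrays alone (0.237), without the 4 arrays of lowest weight (0.0511), and without GFP- replicate 2 (-1.05, adjusted p = 0.0858), GFP- replicate 3 (-1.22, 0.082) or GFP+ replicate 3 (-1.10, 0.0648), while the difference stayed between -1.68 and -1.05. Whether the GFP effect on Cyp26b1 differed between populations did not pass (F-test in limma, adjusted p = 0.138).

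In the macrophages none of the 32 genes passed for GFP, and the 2 with the smallest p were Rbp2 and Rdh5 in the CD103+ CD11b+ CD64+ gate and Rbp2 and Crabp2 in the CD11b+ CD64+ gate. Rbp2, a cellular retinol-binding protein of absorptive enterocytes, was the single gene of the list that rose with GFP averaged over the 3 populations, by 1.64 ± 0.33 (adjusted p = 0.0491). On the CD103+ CD11b+ CD64+ arrays it went from -0.72, -0.36 and -0.87 without GFP to 0.86, 2.68 and 1.51 with GFP. Its effect was 2.33 ± 0.57 there, 2.07 ± 0.57 in the CD11b+ CD64+ macrophages and 0.53 ± 0.57 in DCs, and none of these passed alone. The call on the average ended when any 1 of 16 of the 18 arrays was left out (all but CD103+ CD11b+ CD64+ GFP+ replicate 1 and CD11b+ CD64+ GFP+ replicate 3), with adjusted p-values from 0.0523 to 0.108. It also ended with quantile normalization (adjusted p = 0.0578), array weights (0.0755), a robust variance prior (0.0563) and without the 4 arrays of lowest weight (0.0742). Rbp2 is itself 1 of 20 enterocyte markers, and the mean of these markers was higher on every GFP+ array than on every GFP- array of the same population, at -0.27 to -0.05 against 0.17 to 0.30 in DCs, at -0.11 to 0.01 against 0.07 to 0.44 in the CD103+ CD11b+ CD64+ macrophages, and at -0.15 to -0.08 against 0.13 to 0.51 in the CD11b+ CD64+ macrophages. Of the 20, 14 had a GFP effect above 0 in DCs and 12 in each macrophage population. Their medians were 0.20 in DCs, 0.08 in the CD103+ CD11b+ CD64+ macrophages and 0.10 in the CD11b+ CD64+ macrophages, beside -0.02, 0.02 and 0.01 over all genes. Rbp2 and Fabp1, both part of that mean, passed on the average, where 0.410% of all genes did. The part of epithelial RNA in the values of Rbp2 was not tested.

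**Figure D4:**
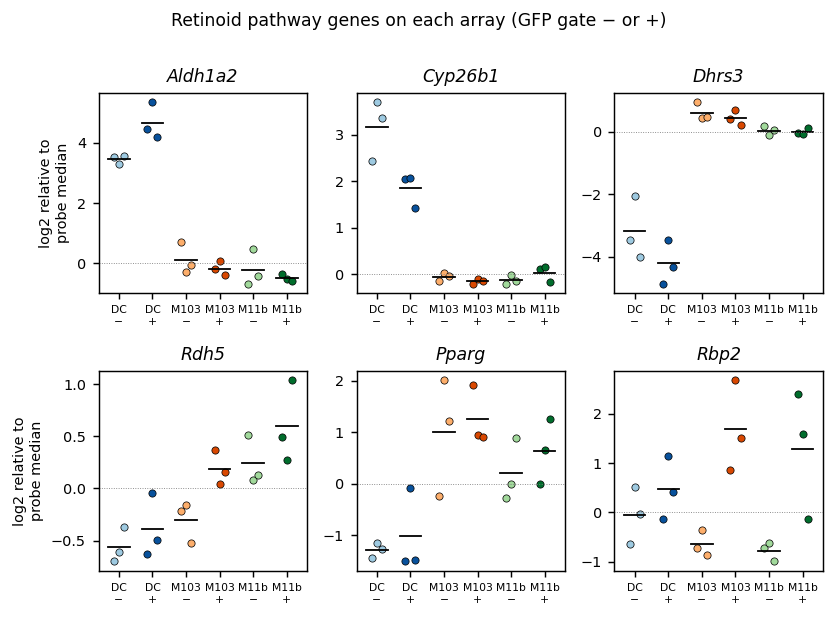
Aldh1a2 and 5 further retinoid genes on each array, log2 relative to the probe median, by population and GFP gate (labels as in the plot of all 10 genes); bars are means of 3 arrays and each panel has its own scale. In DCs the GFP+ arrays lie above the GFP- arrays for Aldh1a2 and below them for Cyp26b1, Dhrs3 is below -2 on every DC array, and Rbp2 is higher on the GFP+ arrays of the CD103+ CD11b+ CD64+ macrophages.

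Of the TGF-beta genes, the ligand Tgfb1 was low on most DC arrays. It was at -0.73, -0.76 and -1.002 on the GFP- DC arrays and at -1.29, 0.12 and 0.25 on the GFP+ DC arrays, where replicate 1 lay apart from the other 2. The CD103+ CD11b+ CD64+ macrophages ran from -0.57 to 0.36 and the CD11b+ CD64+ macrophages from -0.22 to 0.70. The DC difference was -0.42 ± 0.25 from the former (adjusted p = 0.437) and -0.87 ± 0.25 from the latter (95% interval -1.41 to -0.32). The latter had an adjusted p of 0.05002, on the threshold and not passing, and it passed under 7 of 25 alternatives: quantile normalization (-0.82, adjusted p = 0.0274), array weights (-0.82, 0.0207), the loss of the 4 arrays of lowest weight (-0.72, 0.0351) and leaving out GFP+ DC replicate 2 (-0.97, 0.0363), GFP+ DC replicate 3 (-1.01, 0.0254), CD103+ CD11b+ CD64+ GFP+ replicate 1 (-0.87, 0.0492) or CD11b+ CD64+ GFP- replicate 1 (-0.96, 0.0428). The GFP effect on Tgfb1 in DCs was 0.52 ± 0.36 and did not pass.

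Itgav, the alpha chain shared by the TGF-beta-activating integrins, was lower in DCs, and its GFP+ arrays leaned to opposite sides in DCs and macrophages. It was at -1.47, -0.43 and -0.42 on the GFP- DC arrays and at -2.45, -1.11 and -2.03 on the GFP+ DC arrays. The CD103+ CD11b+ CD64+ macrophages were at -0.10, -0.63 and 0.10 without GFP and at 0.50, 0.81 and 1.28 with GFP. The CD11b+ CD64+ macrophages were at -0.37, 0.23 and 0.53 without GFP and at 0.86, 0.83 and 1.57 with GFP. In both macrophage populations the GFP+ arrays thus lay above all GFP- arrays, and in DCs 2 of 3 GFP+ arrays lay below all GFP- arrays.

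The DC difference for Itgav was -1.65 ± 0.27 from the CD103+ CD11b+ CD64+ macrophages (limma, adjusted p = 0.00114), with overlap of 1 macrophage array, and -1.93 ± 0.27 from the CD11b+ CD64+ macrophages (adjusted p = 0.000262), without overlap. Its 2 probes gave the same direction at different sizes: probe 17372515 differed by -2.47 and -2.87 (limma over all probes, adjusted p = 0.000477 and 0.000107) and probe 17387368 by -0.82 and -0.99, of which the first did not pass (adjusted p = 0.0945 and 0.0382). The GFP effect was -1.09 ± 0.39 in DCs, 1.07 ± 0.39 in the CD103+ CD11b+ CD64+ macrophages and 0.96 ± 0.39 in the CD11b+ CD64+ macrophages, and none of these passed (adjusted p = 0.183, 0.375 and 0.752). The test of whether these 3 effects differ gave an unadjusted p of 0.0021 and an adjusted p of 0.137 (F-test in limma), and it passed only without GFP+ DC replicate 2 (adjusted p = 0.0438). With quantile normalization the DC effect was -0.32 in place of -1.09. Array means of markers of other cells also parted by GFP in the macrophages. The 8 monocyte markers had array means of 0.55 to 0.93 without GFP and -0.41 to 0.01 with GFP in the CD103+ CD11b+ CD64+ gate, and of 0.40 to 0.93 and -0.63 to -0.27 in the CD11b+ CD64+ gate. Of the 8, 0 and 1 passed for GFP in these gates, and 2 had an effect above 0 in each. The means of the 14 lymphocyte markers ran from 1.22 to 2.32 without GFP and from -0.18 to 0.66 with GFP in the former gate. Of the 14, 1 passed there and 3 had an effect above 0. The shares of all genes that passed for GFP were 0.0541% and 0.0271% in the 2 gates. The part of monocytes and lymphocytes in the values of Itgav, Rdh10 and Rara was not tested.

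Itgb8, the partner of Itgav in TGF-beta activation, set the GFP+ DCs apart from the other 15 arrays. It was at -0.15, -0.04 and 0.10 on the GFP- DC arrays and at 0.68, 0.88 and 4.42 on the GFP+ DC arrays, while the 12 macrophage arrays lay between -0.34 and 0.22. All 3 GFP+ DC arrays were above every other array, and replicate 3 stood far above the other 2. The difference of 2.03 ± 0.66 in DCs (95% interval 0.61 to 3.44) did not pass (adjusted p = 0.145). Without replicate 3 the difference was smaller, at 0.81, and passed (adjusted p = 0.0352). Likewise the DC difference from the CD11b+ CD64+ macrophages was 1.06 ± 0.47 with all arrays (adjusted p = 0.233) and 0.46 without that replicate (adjusted p = 0.0183). The GFP effects in the macrophages were 0.10 ± 0.66 and 0.03 ± 0.66.

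Tgfbi, named for its induction by TGF-beta, was low in every DC sample. Its GFP- DC arrays were at -5.39, -3.10 and -3.22 and its GFP+ DC arrays at -3.19, -3.65 and -5.94, so that 1 array of each gate lay about as far below the rest. The macrophages were at 0.22, -0.22 and 0.40 and at -0.64, -0.31 and 0.28 in the CD103+ CD11b+ CD64+ gate, and at 0.36, 0.37 and 0.71 and at 0.76, 0.68 and 0.69 in the CD11b+ CD64+ gate, without and with GFP. The DC difference was -4.04 ± 0.45 (adjusted p = 2.35e-05) from the former and -4.68 ± 0.45 (adjusted p = 4.79e-06) from the latter, without overlap. Quantile normalization gave -2.65 and -3.30 and kept both calls. The GFP effect was -0.36 ± 0.63 in DCs, -0.36 ± 0.63 in the CD103+ CD11b+ CD64+ macrophages and 0.22 ± 0.63 in the CD11b+ CD64+ macrophages, and none passed (adjusted p = 0.845, 0.939 and 0.983). The 11 measured macrophage markers had array means of -4.68 to -3.37 in DCs and -0.07 to 0.53 in the macrophages, so Tgfbi and Itgav moved with the general macrophage markers, whose part in their difference was not tested.

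Of 36 further genes of TGF-beta ligands, latency, activation, receptors and targets, 35 were measured. In DCs 1 was higher and 10 were lower than in the CD103+ CD11b+ CD64+ macrophages, and 1 was higher and 9 were lower than in the CD11b+ CD64+ macrophages, where 7.93% and 8.12% of all genes passed. The list medians were -0.27 and -0.47, beside -0.02 and -0.03 over all genes. The 4 lower genes with the smallest p encode proteins known to release or activate latent TGF-beta. Mmp9, a gelatinase, was lower by -5.23 ± 0.17 and -5.91 ± 0.17, and Mmp14, a membrane-bound protease, by -4.14 ± 0.33 and -4.80 ± 0.33. Itgb5, another beta chain that pairs with Itgav, was lower by -4.50 ± 0.16 and -4.77 ± 0.16, and thrombospondin Thbs1 by -4.63 ± 0.25 and -5.31 ± 0.25 (adjusted p at most 5.89e-07 for these 4). The signalling receptor Tgfbr2 was lower by -2.69 ± 0.25 and -2.11 ± 0.25. The higher gene was Lrrc32, which encodes GARP, a membrane protein that presents latent TGF-beta, by 1.59 ± 0.22 and 1.55 ± 0.22 (adjusted p = 0.000204 and 0.000239). Itgb5 was at -4.55 to -4.17 on DC arrays and at -0.37 to 0.65 on macrophage arrays.

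For GFP within DCs, where 1.58% of all genes passed, 1 of the 35 genes rose and 3 fell. Lrrc32 was at -0.18, 0.42 and 0.58 on the GFP- DC arrays and at 2.58, 2.58 and 3.27 on the GFP+ DC arrays, with all macrophage arrays between -0.42 and 0.72. Like Itgb8, it was highest on the 3 GFP+ DC arrays. It rose by 2.53 ± 0.31 (5.78-fold; adjusted p = 0.00101) and passed under all 25 alternatives. Its GFP effect differed between populations (F-test in limma, adjusted p = 0.0148), although not with quantile normalization (adjusted p = 0.0676) or without the 4 arrays of lowest weight (0.0617).

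The 3 genes that fell with GFP in DCs were the receptors Tgfbr2 and Acvrl1 and Nrros, which anchors latent TGF-beta on myeloid cells. Tgfbr2 went from -0.51, -1.06 and -1.42 to -2.75, -2.37 and -2.89, a fall of -1.67 ± 0.36 (adjusted p = 0.034), and Acvrl1 from 0.49, 0.08 and 0.15 to -2.57, -0.87 and -1.76, by -1.98 ± 0.44 (adjusted p = 0.0423). Nrros went from -0.98, -0.36 and -0.05 to -3.25, -1.03 and -3.23, by -2.04 ± 0.48 (adjusted p = 0.0499). The gates did not overlap for any of the 3, but each call was weak. With quantile normalization the differences were -0.50, -1.21 and -0.999 and none passed (adjusted p = 0.768, 0.207 and 0.323). None passed in a fit of the DC arrays alone or without the 4 arrays of lowest weight. The call on Tgfbr2 ended when any 1 of 6 arrays was left out (all 3 GFP- DC arrays, GFP+ DC replicates 1 and 3 and CD11b+ CD64+ GFP+ replicate 2; adjusted p = 0.0526 to 0.0989). The call on Acvrl1 ended without any 1 of 12 arrays (those 5 DC arrays, replicate 2 of both CD103+ CD11b+ CD64+ gates, CD11b+ CD64+ GFP- replicates 2 and 3 and all 3 CD11b+ CD64+ GFP+ arrays; 0.0506 to 0.14). The call on Nrros ended without any 1 of 16 arrays, all but GFP+ DC replicate 2 and CD103+ CD11b+ CD64+ GFP+ replicate 1 (0.0508 to 0.172). The macrophage markers were also lower on the GFP+ DC arrays, with 2 of 11 passing and array means of -4.68 to -4.34 against -4.26 to -3.37, and the 14 lymphocyte markers had means of -0.41 to -0.18 against 0.35 to 0.77, with 1 passing. Their part in the DC values of Tgfbr2, Acvrl1, Nrros and Itgav was not tested, nor in those of Aldh1a2, Itgb8 and Lrrc32, which ran higher with GFP.

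In the macrophages none of the 35 genes passed for GFP. Tgfbr2 ran the other way there, at 1.04, 0.52 and -0.28 without GFP and 1.70, 1.14 and 1.004 with GFP in the CD103+ CD11b+ CD64+ gate, where 2 of 3 GFP+ arrays lay above all GFP- arrays. In the CD11b+ CD64+ gate it was at 0.12, -0.12 and -0.79 and at 1.26, 0.80 and 0.37, without overlap, a difference of 1.07 ± 0.36 (adjusted p = 0.615). Its GFP effect differed between populations (F-test in limma, adjusted p = 0.0393), but the call ended with quantile normalization (adjusted p = 0.321) and under 13 other alternatives of 24. Pmepa1, a TGF-beta-induced inhibitor of the pathway, differed by 1.96 ± 0.47 with GFP in the CD103+ CD11b+ CD64+ macrophages and Mmp9 by 0.82 ± 0.24 and 0.79 ± 0.24 in the 2 gates, and none of these passed (adjusted p = 0.148, 0.247 and 0.557). Averaged over the populations, Lrrc32 (0.72 ± 0.18) and Pmepa1 (1.02 ± 0.27) had the smallest p and did not pass.

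**Figure D5:**
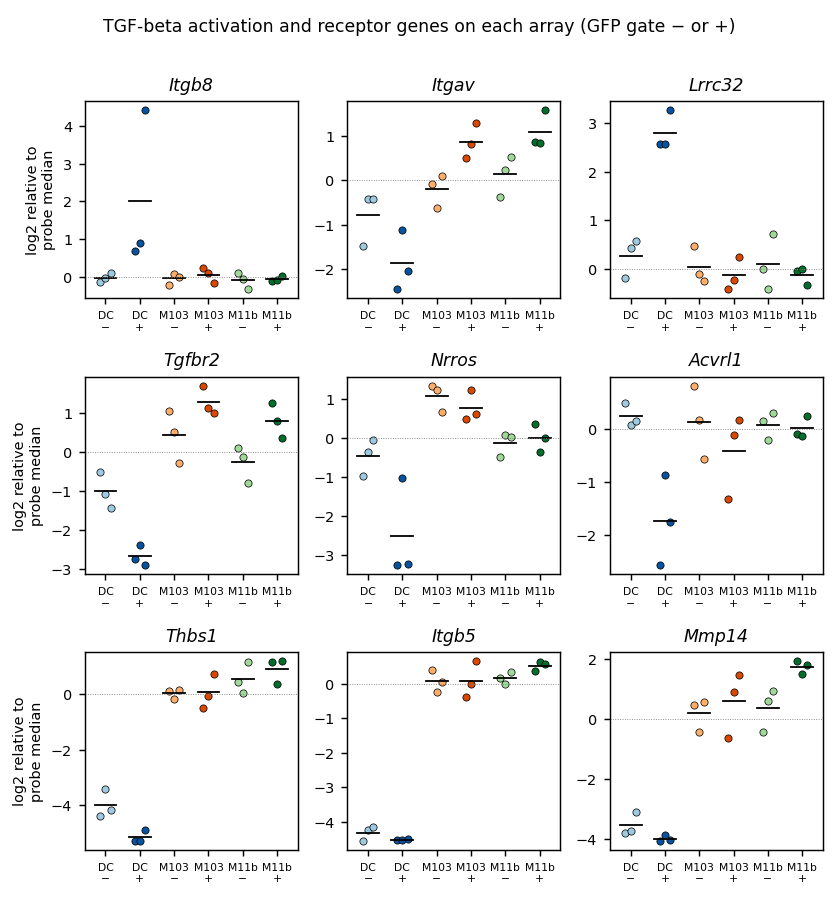
Itgb8, Itgav and 7 further TGF-beta genes on each array, log2 relative to the probe median, by population and GFP gate (labels as in the plot of all 10 genes); bars are means of 3 arrays and each panel has its own scale. Lrrc32 and Itgb8 are highest on the 3 GFP+ DC arrays, Tgfbr2 and Nrros are lowest there, and Thbs1, Itgb5 and Mmp14 are below -3 on every DC array.

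Ido1, the tryptophan-degrading enzyme, did not pass in any of the 8 comparisons. On the GFP- DC arrays it was at 0.33, -0.22 and 0.86 and on the GFP+ DC arrays at 0.90, -0.39 and 0.03, and the 12 macrophage arrays lay between -0.19 and 0.60. DCs therefore held both its highest and its lowest values. Its DC differences were 0.12 ± 0.22 (95% interval -0.35 to 0.59) and 0.27 ± 0.22 (-0.20 to 0.75), and its GFP effect in DCs was -0.14 ± 0.31 (-0.81 to 0.52).

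Of 17 listed genes of tryptophan breakdown and of the aryl hydrocarbon receptor that senses its products, 16 were measured, and Haao and Kmo, enzymes of the kynurenine branch downstream of Ido1, moved. Haao was at 0.999, 0.92 and 1.15 on the GFP- DC arrays and at -0.31, 0.01 and -0.02 on the GFP+ DC arrays, which is the macrophage range of -0.36 to 0.34. It fell with GFP in DCs by -1.13 ± 0.15 (adjusted p = 0.00146), a call that ended in a fit of the DC arrays alone (adjusted p = 0.0644). No other gene of the 16 passed for GFP in 1 population, and 1.58% of all genes passed for GFP in DCs. Averaged over the populations Haao fell by -0.49 ± 0.08 and Kmo by -1.02 ± 0.20 (adjusted p = 0.0257 and 0.0482), and the second ended when any 1 of 14 arrays was left out (all but GFP- DC replicate 1, CD103+ CD11b+ CD64+ GFP- replicate 2, CD103+ CD11b+ CD64+ GFP+ replicate 3 and CD11b+ CD64+ GFP- replicate 3; adjusted p = 0.0629 to 0.12). The Kmo call also ended with a replicate block (adjusted p = 0.0551), a robust variance prior (0.0548) and without the 4 arrays of lowest weight (0.098). The call on the average of Haao ended without the 4 arrays of lowest weight (adjusted p = 0.0804) and without GFP- DC replicate 3 (-0.47, adjusted p = 0.0581) or CD11b+ CD64+ GFP- replicate 2 (-0.49, 0.0552), GFP+ replicate 1 (-0.46, 0.0587) or GFP+ replicate 3 (-0.49, 0.0615).

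Against the CD103+ CD11b+ CD64+ macrophages, 3 of the 16 genes were higher in DCs (Haao by 0.48 ± 0.10, Kmo by 0.98 ± 0.25 and the receptor Ahr by 1.17 ± 0.32) and Tiparp, a target of Ahr, was lower by -1.15 ± 0.29. Against the CD11b+ CD64+ macrophages Haao was higher by 0.50 ± 0.10 and Tiparp lower by -1.44 ± 0.29. The shares of all genes that passed in these comparisons were 7.93% and 8.12%. In the first comparison the calls on Kmo, Ahr and Tiparp ended when any 1 of 5, 8 and 4 arrays was left out, with adjusted p-values of up to 0.0682, 0.0868 and 0.0621. The arrays were replicate 3 of both DC gates, GFP- replicate 2 and GFP+ replicates 1 and 2 of the CD103+ CD11b+ CD64+ macrophages for Kmo. They were all 6 DC arrays and the first 2 of those 3 macrophage arrays for Ahr, and GFP- DC replicate 1 and CD103+ CD11b+ CD64+ GFP- replicate 3, GFP+ replicate 2 and GFP+ replicate 3 for Tiparp. The Kmo call also ended with array weights (adjusted p = 0.058) and without the 4 arrays of lowest weight (0.168). With only the arrays compared, the calls on Kmo, Ahr and Tiparp all ended (0.0786, 0.061 and 0.0758).

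A last list held 17 other genes by which phagocytes restrain T cells or form regulatory ones, all measured. Cd274, which encodes the checkpoint ligand PD-L1, was the 1 that passed for GFP in DCs, where 1.58% of all genes passed. It was at -0.43, -1.39 and -1.72 on the GFP- arrays and at 0.49, 0.42 and 0.47 on the GFP+ arrays, which spread far less. It rose by 1.64 ± 0.31 in DCs (adjusted p = 0.0212) and by 1.09 ± 0.18 averaged over the populations (adjusted p = 0.0218). The DC call ended with quantile normalization (adjusted p = 0.0505), in a fit of the DC arrays alone (0.145), and without GFP- replicate 2 (1.54, 0.0858), GFP- replicate 3 (1.37, 0.0843), GFP+ replicate 1 (1.63, 0.0621) or GFP+ replicate 3 (1.64, 0.0544). The average ended without the 4 arrays of lowest weight (adjusted p = 0.0943), and without GFP- DC replicate 2 (1.05, 0.0534), CD11b+ CD64+ GFP+ replicate 1 (1.08, 0.053) or GFP+ replicate 3 (1.05, 0.0593). Lgals1, the gene of the T cell-restraining galectin-1, fell on the average by -1.65 ± 0.30 (adjusted p = 0.034), with effects of -2.24 ± 0.53 and -1.94 ± 0.53 in the macrophage gates that did not pass alone. That call ended when any 1 of 9 arrays was left out: GFP- DC replicates 2 and 3, GFP+ DC replicate 3, CD103+ CD11b+ CD64+ GFP- replicates 1 and 3 and GFP+ replicate 3, and CD11b+ CD64+ GFP- replicate 2 and GFP+ replicates 1 and 3 (adjusted p = 0.053 to 0.0867).

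Between the populations, 1 of these 17 genes was higher and 5 were lower in DCs than in the CD103+ CD11b+ CD64+ macrophages, and 1 was higher and 6 were lower than in the CD11b+ CD64+ macrophages, where 7.93% and 8.12% of all genes passed. The higher gene was Btla, a co-inhibitory receptor, by 5.62 ± 0.47 and 6.22 ± 0.47. It was at 4.90 to 6.56 on DC arrays and at most 0.13 on the macrophage arrays, except for 3.44 on CD103+ CD11b+ CD64+ GFP- replicate 3. That array was at 2.66 for Itgae, while GFP- replicate 1, with the highest Itgae of that gate at 3.44, was at -0.08 for Btla. Il10, the gene of the cytokine by which intestinal macrophages sustain regulatory T cells, was lower in DCs by -4.67 ± 0.29 and -4.10 ± 0.29 (adjusted p = 3.97e-08 and 1.56e-07). Lgals9 (galectin-9) was lower by -2.95 ± 0.23 and -3.47 ± 0.23, the interleukin-10 receptor chain Il10rb by -3.18 ± 0.29 and -3.08 ± 0.29, and Socs3, a feedback inhibitor of cytokine signalling, by -2.87 ± 0.27 and -2.25 ± 0.27. Tnfrsf14, the partner of Btla, was lower against the CD11b+ CD64+ macrophages by -2.12 ± 0.42. Il10ra was lower against the other population by -1.16 ± 0.33, a call that 16 of 25 alternatives ended, 13 of them by the loss of 1 array (all but GFP- DC replicate 1, GFP+ DC replicate 2, CD103+ CD11b+ CD64+ GFP+ replicate 1, and CD11b+ CD64+ GFP- replicates 1 and 3).

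Between the 2 macrophage populations none of the genes of these 4 lists passed. The 2 with the smallest p in each list were Rdh5 (-0.48 ± 0.15) and Rdh11 (-0.39 ± 0.18), Mmp9 (-0.69 ± 0.17) and Mmp2 (-1.60 ± 0.48), Kmo (-1.16 ± 0.25) and Kynu (-1.70 ± 0.47), and Socs3 (0.62 ± 0.27) and Lgals9 (-0.52 ± 0.23), with adjusted p-values from 0.191 to 0.872. Among the 10 members the largest such difference was that of Tgfbi, at -0.64 ± 0.45 (adjusted p = 0.991).

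For the 3 members that passed, the genes with the most similar pattern over the 18 arrays were taken by Pearson's r. Aldh1a2 was followed most closely by Ly75 (r = 0.987), the antigen-uptake receptor DEC-205 of DCs, Flt3 (0.978), the receptor of a DC growth factor, and Gpr33 (0.976). Ly75 shared the split by GFP in DCs, with GFP- arrays at 4.26, 4.00 and 4.02 and GFP+ arrays at 5.30, 5.49 and 5.42. Itgav was followed by Impact (0.971), Slf2 (0.957) and Tmem87b (0.956). Tgfbi was followed by Ctsh (0.975), a lysosomal protease, P2rx4 (0.971) and Lgals9 (0.967). These correlations are descriptions over the 18 arrays, which share the split into DCs and macrophages, and carry no test.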

How the data were processed

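RNA was extracted from cells sorted into TRIzol LS, and the NuGEN WT Ovation Pico kit amplified 1 ng of total RNA, per the labels' protocols. The authors deposited 1 table of log2 values for 33793 probes on 18 arrays, each probe centred on its median (base 2 was read off their spread, since a probe spans up to 10.1 units where log10 of a scanner's range allows 4.82). For software, background correction and normalization the labels are silent, and the table holds no signal levels or detection calls, so expression could not be told from background. Of the probes, 23521 carried 1 gene symbol, 1814 several and 8458 none. Averaging the first kind by symbol (1082 genes had several probes) gave 22180 genes. limma 3.58.1 in R 4.3.3 fitted means of the 6 groups, and p-values were adjusted by the Benjamini-Hochberg method over all genes with a threshold of 0.05. The 8 comparisons were the GFP effect in each of the 3 populations, its mean, its difference between populations (F-test), and the 3 differences between populations averaged over both gates. The fit was also run on simulated data of independent noise with planted differences. Those data lack the unequal spread of these arrays, so that run cannot vouch for the calls made here. All 10 genes are reported in every comparison. From each list the genes that passed are named, up to the 6 with the smallest p, or the 2 with the smallest p where none passed, and for each of the 10 genes that passed anywhere the 3 genes most correlated with it. The 10 genes and the lists were chosen with earlier results of these data known. The alternatives were quantile normalization, array weights, only the arrays compared, a replicate block, probes taken singly, a robust variance prior, each array left out, and, chosen after seeing the data, the 4 arrays of lowest weight left out.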

Additional observations from a re-analysis of the deposited data

Results flagged for a closer look

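The GFP effect on Lrrc32 differed between the 3 populations (F-test in limma, Benjamini-Hochberg adjusted p = 0.0148), with 2.53 in DCs, -0.16 in the CD103+ CD11b+ CD64+ macrophages and -0.22 in the CD11b+ CD64+ macrophages on the log2 scale. The GFP effect on Tgfbr2 also differed between them (adjusted p = 0.0393), with -1.67 in DCs and 0.85 and 1.07 in the macrophage populations.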

How the results depend on the processing

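Under the alternatives other than the loss of 1 array, 0 of the 10 genes passed in each GFP comparison and between the macrophage populations, and 3 passed for DCs against the CD103+ CD11b+ CD64+ macrophages. Against the CD11b+ CD64+ macrophages 4 passed in place of 3 with quantile normalization, with array weights and without the 4 arrays of lowest weight, each adding Tgfb1, and with only the arrays compared, adding Rara. When each array was left out in turn, the number ranged from 0 to 1 for GFP in DCs and for its difference between populations, was 3 for DCs against the CD103+ CD11b+ CD64+ macrophages, ranged from 3 to 5 against the CD11b+ CD64+ macrophages, and was 0 in the other 4 comparisons. Of 1980 values recomputed for the 10 genes, 1969 kept their side of the threshold, 11 passed where the value reported did not, none lost its call and no called value turned its sign. Of 1268 values recomputed for calls on the listed genes, 171 lost the call and none turned its sign.

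Counts over all genes moved more. With quantile normalization 48 genes passed for GFP in DCs, 62 in the CD103+ CD11b+ CD64+ macrophages, 22 in the CD11b+ CD64+ macrophages, 164 on the average, 32 for a difference between populations and 33 between the macrophage populations, against 351, 12, 6, 91, 80 and 16. With array weights 95, 53, 177, 193 and 29 passed in the last 5 of these. With only the arrays compared, 85 passed for GFP in DCs, 0 for GFP in the CD103+ CD11b+ CD64+ macrophages and 3 between the macrophage populations. Without the 4 arrays of lowest weight 30 passed for GFP in the CD103+ CD11b+ CD64+ macrophages. Leaving out 1 array gave 118 (without GFP- DC replicate 2) to 711 (without GFP+ DC replicate 2) for GFP in DCs, 5 to 60 and 0 to 34 in the macrophage populations, 25 to 172 on the average, 41 to 226 for a difference between populations, 1492 to 1842 and 1409 to 2028 for DCs against the macrophages, and 11 to 42 between the macrophage populations. The causes were not tested.

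The labels do not say if samples of the same replicate number share mice or a sort. Of 9 correlations of their deviations 2 were over 0.1, and 5 of 9 samples correlated best with their own number. So few samples cannot decide whether they are paired. With the replicate number as a block, the calls on the 10 genes were unchanged, and 121 genes in place of 80 passed for a difference between populations. Among the listed genes Acvrl1 lost its call for GFP in DCs (limma, adjusted p = 0.0558) and Kmo its call on the average (0.0551). Il10ra lost its call for DCs against the CD103+ CD11b+ CD64+ macrophages (0.0679). With 3 arrays a group and values relative to a probe median, small differences of Aldh1a1, Aldh1a3, Rdh10, Rara and Ido1 could not be detected, and a filter on dim probes could not be applied.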
